A study of Mus musculus with 2 samples.

Results

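The phagocyte NADPH oxidase was examined in the mouse microglial line BV2 through 7 genes: Cybb, Cyba, Ncf1, Ncf4, Rac1, Rac2 and Hvcn1. The genes were taken by symbol from the transcript clusters (groups of array probes that measure a gene or part of one) that the platform annotation pairs with exactly 1 symbol. All 7 were found, each with 1 cluster, out of 19938 genes measured in this way. The genes were chosen by their part in this enzyme and with their log2 differences between the media already known, so those values are given as a description.

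BV2 is a mouse microglial line that grows without limit, and microglia are the macrophages that live in the brain. Cells were seeded in DMEM/F12, a high-nutrient medium, and on the next day the medium was exchanged for fresh DMEM/F12 in one culture and for DMEM, the standard high-glucose medium, in the other. Both media held serum, penicillin and streptomycin, and RNA was taken after 1 day by the methods, while the labels give more than 1 day. The RNA of each culture was measured on 1 Affymetrix Mouse Gene 1.0 ST array, so there is 1 DMEM/F12 array and 1 DMEM array, with no genotype or agent other than the medium. The cells are a single transformed line, and the DMEM culture is the one that was moved to a different medium.

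The phagocyte oxidase passes electrons from NADPH inside the cell across a membrane to oxygen, which makes superoxide. Its membrane part is a flavocytochrome of gp91phox, the catalytic chain, and p22phox, the chain that holds it in place. In resting phagocytes the part is silent, and it becomes active when cytosolic proteins and a GTP-bound Rac join it at the plasma membrane or phagosome. The charge that the electrons carry is balanced by a proton channel. In microglia the enzyme is known for killing microbes and for oxidative damage to neighbouring neurons.

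The deposited values are log2 expression values, and each difference below was taken as DMEM/F12 minus DMEM. Over all 28944 clusters the median log2 value was 4.77 in DMEM/F12 and 4.75 in DMEM. Sensory receptor genes (smell, pheromone and taste), with 1248 clusters, served to set a background. Their 95th percentile was 4.17 in DMEM/F12 and 4.15 in DMEM, and all 7 oxidase genes were above it on both arrays. With 1 array per medium no replicate error exists, no p-value was calculated, and a difference describes this pair of arrays only. In RNA from a whole culture, a change in the number of cells of one kind and a change in RNA per cell cannot be told apart. Because clusters differ in their probes, values are compared between media within a gene, and the levels of genes are not ranked. The background and the sums of marker values given below do set values of different genes together, so they are rough guides only.

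Of the genes for the membrane flavocytochrome, Cybb was higher in DMEM/F12 and Cyba was nearly level. Cybb, which encodes gp91phox, had a log2 value of 10.66 in DMEM/F12 and 9.58 in DMEM. It was thus 2.11-fold higher in DMEM/F12, a log2 difference of 1.08. Cyba, which encodes its partner p22phox, had 11.02 in DMEM/F12 and 10.99 in DMEM. That is a log2 difference of 0.03, or 1.02-fold. The difference of Cybb exceeded that of Cyba by 1.05 on the log2 scale, and the size of array noise that this should be read against is not known. Over all genes, 0.0602% were at least 2-fold higher in DMEM/F12 and 0.0251% at least 2-fold lower, and Cybb ranked as number 6 from the highest difference. These ranks describe how Cybb came to be chosen.

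The DNA before the Cybb start is shown because this gene alone among the 7 lay past 2-fold. The DNA before Cyba and Ncf1 is shown because no other windows of the 7 genes were at hand. RefSeq promoter windows of the GRCm38.p6 build were at hand for 3 of the 7 genes, each reaching from 250 bases before the annotated start to 50 bases after it. The 250 bases before the start are printed 5′ to 3′ on the gene's strand (the minus strand for all 3). They lie at chrX:9469325-9469574 for Cybb, chr8:122432941-122433190 for Cyba and chr5:134229626-134229875 for Ncf1. Capitals mark matches to 5 letter strings searched on both strands: GAGGAA, the core bound by the myeloid factor PU.1, the repeat of GAAA after any 2 bases that interferon regulatory factors bind (called the GAAA pair), the CCAAT box, the Sp1 core GGCGGG and the TATA box TATAAA. In the printed bases the strings do not overlap.
Cybb: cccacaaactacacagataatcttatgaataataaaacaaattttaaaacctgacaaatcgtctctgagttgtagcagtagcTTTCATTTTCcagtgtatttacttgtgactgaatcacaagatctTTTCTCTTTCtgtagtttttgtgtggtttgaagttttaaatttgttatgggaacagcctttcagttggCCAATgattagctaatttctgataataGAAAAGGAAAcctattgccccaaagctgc
Cyba: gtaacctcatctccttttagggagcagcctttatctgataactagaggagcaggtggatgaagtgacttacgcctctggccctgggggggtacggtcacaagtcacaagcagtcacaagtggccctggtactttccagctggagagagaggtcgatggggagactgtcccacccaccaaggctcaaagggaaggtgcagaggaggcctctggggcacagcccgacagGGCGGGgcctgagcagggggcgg
Ncf1: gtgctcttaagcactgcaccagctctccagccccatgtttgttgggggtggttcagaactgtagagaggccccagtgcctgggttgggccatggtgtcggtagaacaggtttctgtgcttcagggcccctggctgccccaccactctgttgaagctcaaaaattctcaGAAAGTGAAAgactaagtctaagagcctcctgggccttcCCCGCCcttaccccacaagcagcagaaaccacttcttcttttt

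The Cybb stretch had a GC content of 34.0%, against 60.0% for Cyba and 54.4% for Ncf1. It held 3 matches to the GAAA pair, beginning 168, 124 and 29 bases before the start, and 1 match to CCAAT, 56 bases before it. Ncf1 had 1 match to the GAAA pair, 82 bases before its start, and Cyba had none. Of 32851 promoter windows of this length in the table, 3.44% held at least 1 match to the GAAA pair and 37.4% at least 1 to CCAAT. The only match to GAGGAA in the 3 windows lay in Cybb on the opposite strand, beginning 10 bases after the annotated start, in the stretch ttttcatTTCCTCatcagaa at chrX:9469303-9469322, and 28.3% of all windows held that string. GGCGGG was found in Cyba 23 bases before the start and again at the start itself, where it runs past the printed bases, and once in Ncf1, 43 bases before its start, and 35.3% of windows held it. None of the 3 windows held TATAAA, which 13.6% of all windows held. The strings were chosen with the array values known, and a match is a run of letters, not a bound site.

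**Figure D1:**
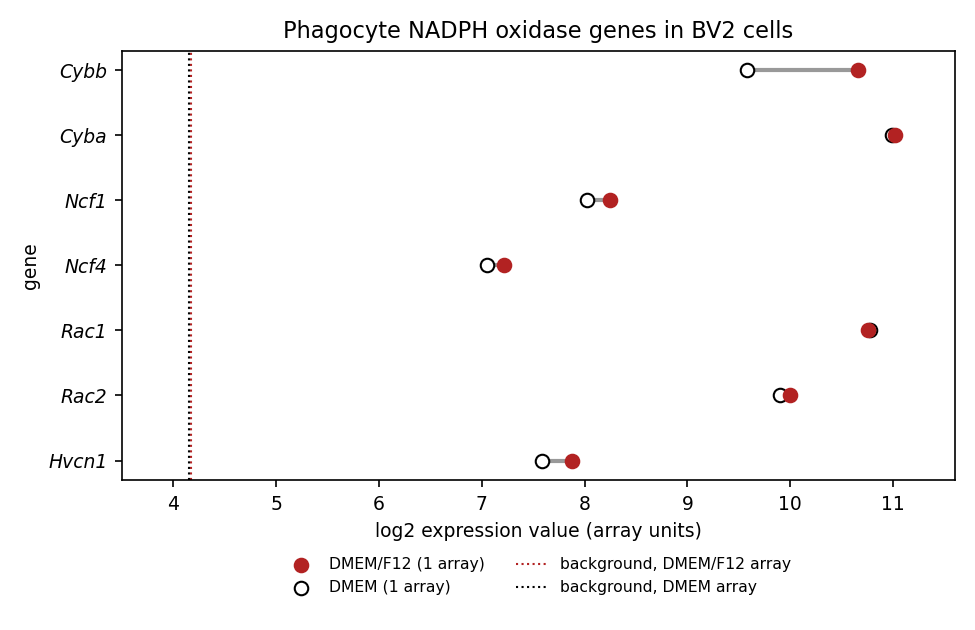
Log2 expression value (x axis, array units) of the 7 oxidase genes (y axis) on the DMEM/F12 array (red circles) and the DMEM array (open circles), with a gray line joining both values of a gene and dotted lines at the background of each array. Cybb has the longest line, with 10.66 in DMEM/F12 and 9.58 in DMEM, and the circles of Cyba and Rac1 nearly coincide.

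Ncf1 and Ncf4, genes of cytosolic subunits, were both somewhat higher in DMEM/F12, by less than 1.5-fold. Ncf1, which encodes p47phox, the organizer that docks the cytosolic complex onto p22phox once it is phosphorylated, had 8.25 in DMEM/F12 and 8.02 in DMEM. Its log2 difference was 0.23, or 1.17-fold, which was above that of 85.7% of all genes. Ncf4, which encodes p40phox, the subunit that binds phosphatidylinositol 3-phosphate on phagosomes, had 7.22 in DMEM/F12 and 7.05 in DMEM. Its log2 difference of 0.17, or 1.13-fold, was above that of 77.5% of genes. Differences of this size were common: 72.1% of all genes had a smaller difference in either direction than Ncf1 and 56.5% a smaller one than Ncf4.

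The Rac genes were close to equal between the arrays. Rac2, the Rac of blood cells and the main one of the neutrophil oxidase, had 10.00 in DMEM/F12 and 9.90 in DMEM, a log2 difference of 0.10. Rac1, which is made in nearly all cells and also drives membrane ruffling, had 10.76 in DMEM/F12 and 10.78 in DMEM. Its difference of -0.02 was the only one of the 7 below 0, and only 10.1% of all genes had a smaller difference in either direction. The sign for Rac1 turned under quantile normalization, where its difference was 0.005. Rac1 and Rac2 are close paralogs, and whether their clusters share signal was not tested.

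Hvcn1 encodes the voltage-gated proton channel that lets protons follow the electrons moved by the oxidase. It had 7.88 in DMEM/F12 and 7.59 in DMEM, a log2 difference of 0.29 or 1.22-fold. This was the second highest of the 7 differences, 0.79 below that of Cybb on the log2 scale. It was above the difference of 90.4% of all genes, while the central 95% of all genes ran from -0.45 to 0.46. The other 5 genes, Cyba, Ncf1, Ncf4, Rac1 and Rac2, also lay inside that range, and Cybb lay outside it.

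As a group, 6 of the 7 genes were higher in DMEM/F12 and 1 lower, where 47.2% of all genes were higher and 45.5% lower, and the median log2 difference was 0.17, against 0.00 over all genes. Without Cybb the median of the remaining 6 genes was 0.14, with 5 higher. At least 1.5-fold higher was 1 of the 7, Cybb, and none was lower by as much. Of all genes, 0.928% were at least 1.5-fold higher and 0.727% at least 1.5-fold lower. As the members were picked with these differences known, nothing is read from the counts. Median centring, quantile normalization and the subtraction of a loess curve left Cybb between 1.06 and 1.12, Hvcn1 between 0.27 and 0.31 and Ncf1 between 0.21 and 0.25.

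**Figure D2:**
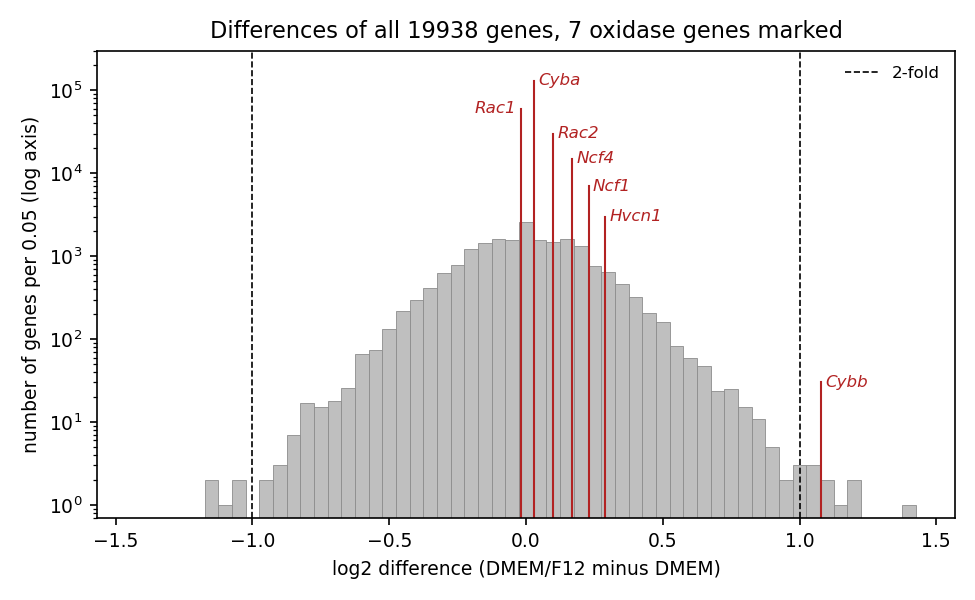
Number of genes (y axis, log scale) by log2 difference between DMEM/F12 and DMEM (x axis, bins of 0.05) for all genes measured, with a red line for each of the 7 oxidase genes and dashed lines at 2-fold. The lines of 6 genes stand in the bulk of the distribution, between -0.02 and 0.29, and Cybb stands in its upper tail at 1.08; the heights of the red lines carry no value.

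The genes nearest to Cybb in their difference were sought among genes above background on both arrays. Small RNAs, sensory receptors and unnamed gene models were left out. The nearest were Serpinb1a (1.06), Trp53inp1 (1.10), Klhl38 (1.13), Nfkbia (1.03) and Fam20c (1.18). Likeness here rests on a single log2 difference per gene from 2 arrays, and each of the 5 was within 0.10 of Cybb.

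The genes that lie next to the 7 on their chromosomes were set beside them. By the gene order of GRCm38.p6, the nearest measured protein-coding genes around Cybb on chromosome X were Xk with a log2 difference of 0.07 and Lancl3 with 0.11 on one side, and Dynlt3 with -0.24 and Sytl5 with -0.15 on the other, the last of which was not above background. Over the 28 neighbours of the 7 genes (2 on each side) the differences ran from -0.24 to 0.37 with a median of -0.05 (12 higher, 16 lower), and 0 were past 1.5-fold. So few genes overall were at least 1.5-fold higher (0.928%) or lower (0.727%) that a count of 0 among 28 says nothing particular of these neighbours. Ncf4 and Rac2 lie on chromosome 15 with 10 protein-coding genes between them. Next to Ncf4 stand Csf2rb2 and Csf2rb, genes of receptor chains for myeloid growth factors, which had -0.16 and -0.18, while Ncf4 had 0.17. Hvcn1, Ncf1 and Rac1 all lie on chromosome 5, with 111 and 182 protein-coding genes between successive ones.

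The other oxidases of the family were not above background. Nox1 had 3.69 in DMEM/F12 and 3.62 in DMEM, Nox3 had 3.42 in DMEM/F12 and 3.31 in DMEM, and Nox4, an oxidase that is active without cytosolic partners, had 2.76 in DMEM/F12 and 2.61 in DMEM. The same held for the dual oxidases Duox1 (3.89 in DMEM/F12, 3.81 in DMEM) and Duox2 (2.90 in DMEM/F12, 3.07 in DMEM), and for Noxa1, the activator of NOX1 (3.66 in DMEM/F12, 3.60 in DMEM). A value below background sets no level, so no change is read from these 6 genes.

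Of the 13 measured family genes outside the 7, the other 7 were above background on at least 1 array. Cybc1 encodes the chaperone Eros, which the flavocytochrome needs to become stable. It had 6.19 in DMEM/F12 and 6.03 in DMEM, a log2 difference of 0.16. Rap1a and Rap1b encode small GTPases, and RAP1A was found with the human flavocytochrome. Rap1a had 9.33 in DMEM/F12 and 9.37 in DMEM, and Rap1b had 9.39 in DMEM/F12 and 9.63 in DMEM. Rac3, the Rac best known from neurons, had 4.57 in DMEM/F12 and 4.81 in DMEM, a log2 difference of -0.24 that equals the one of Rap1b. Noxo1, the organizer of NOX1, had 4.67 on both arrays. The maturation factor genes of the dual oxidases had -0.08 (Duoxa1) and -0.21 (Duoxa2), and Duoxa2 was above background in DMEM only. Of these 7 genes above background 1 was higher (Cybc1), 5 lower and 1 equal, with a median of -0.08. Counted with the 6 dim genes, of which 5 were higher, the 13 genes gave 6 higher and 6 lower with a median of 0.00. None of the 13 was past 1.5-fold. Over all genes, 47.2% were higher and 45.5% lower, with 0.928% at least 1.5-fold higher and 0.727% at least 1.5-fold lower. Above background on at least 1 array were 13225 of all 19938 genes. Nothing is read from the counts of the 13 genes as particular to the family.

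**Figure D3:**
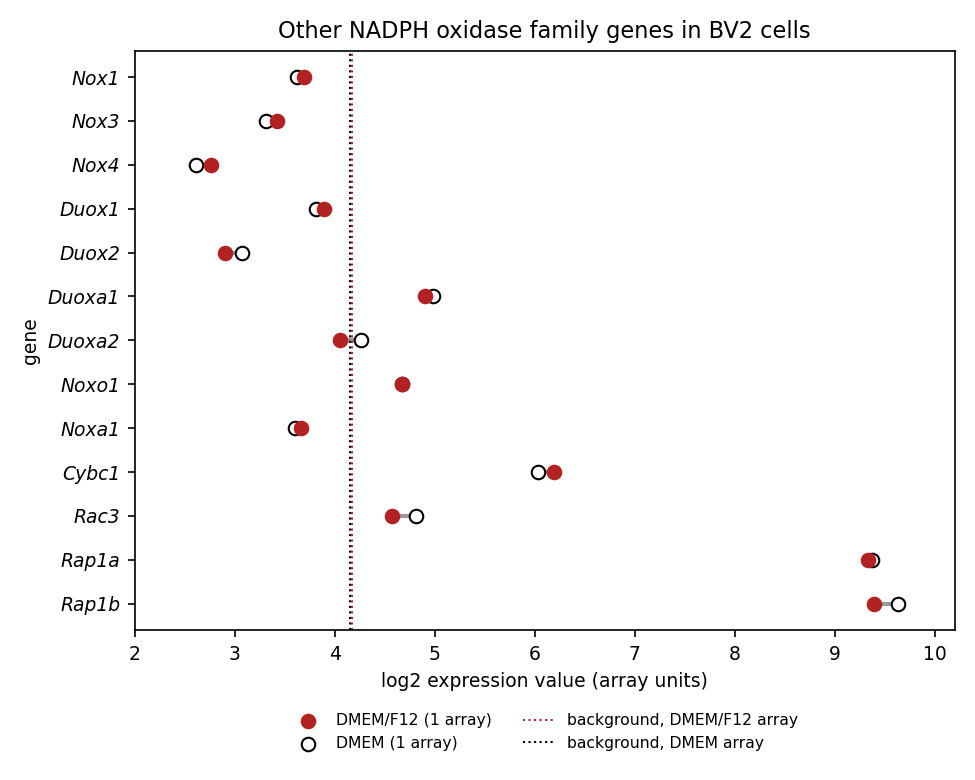
Log2 expression value (x axis, array units) of the 13 other family genes (y axis) on the DMEM/F12 array (red circles) and the DMEM array (open circles), with dotted lines at the background of each array. Both circles of Nox1, Nox3, Nox4, Duox1, Duox2 and Noxa1 lie left of the dotted lines; those of Noxo1 coincide at 4.67.

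Genes listed around the activation of the oxidase had differences in both directions. The counts of this and the following lists stand beside 47.2% higher and 45.5% lower over all genes, with 0.928% at least 1.5-fold higher and 0.727% at least 1.5-fold lower, and nothing is read from them as particular to a list. Of 15 measured regulators of Rac, 7 were higher and 8 lower (median -0.01). They were not split by whether they activate or restrain Rac. Dock1, an exchange factor for Rac in the uptake of dying cells, had the largest difference, with 7.18 in DMEM/F12 and 6.67 in DMEM (0.51), followed by the exchange factor gene Tiam2 (0.44), which was below background in DMEM. Of 16 kinases and lipid enzymes, 10 were higher and 4 lower (median 0.06). The largest differences were those of Prkcz, an atypical protein kinase C gene (0.28), and Pla2g4a, whose phospholipase frees the arachidonic acid that aids oxidase assembly (-0.24). None of these genes lay past 1.5-fold.

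Among 21 cell surface receptors and partners listed around the triggering of the oxidase, 14 were higher and 7 lower (median 0.02). They were not split by whether they promote or restrain it. Tlr2, the receptor for bacterial lipoproteins, had 7.51 in DMEM/F12 and 6.78 in DMEM, or 1.66-fold higher. C5ar1, the receptor for the complement fragment C5a, had 4.92 in DMEM/F12 and 5.62 in DMEM, or 1.62-fold lower. These were the 2 of the 21 past 1.5-fold, 1 in each direction.

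Of 20 measured transcription factors known from phagocytes to act on oxidase genes, 9 were higher and 10 lower (median -0.01). Cux1, a repressor of the human CYBB promoter, had 8.01 in DMEM/F12 and 7.60 in DMEM (0.41), and Junb, a subunit of the AP-1 factor, had 6.75 in DMEM/F12 and 6.49 in DMEM (0.26). Spi1, which encodes PU.1, had 10.30 in DMEM/F12 and 10.34 in DMEM, and Irf8, its partner on myeloid promoters, had 8.53 in DMEM/F12 and 8.46 in DMEM. Both were chosen after their values were seen. The 1 gene past 1.5-fold was Hoxa9 with -0.80, but it was below background on both arrays.

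The largest differences above background in the 9 lists around the oxidase were those of single genes. These were Atp6v0d2 (0.75), listed under charge, pH and NADPH supply, and Cat (0.74), listed under removal of superoxide and peroxide. The differences of Tlr2 (0.73) and C5ar1 (-0.70) among the triggering receptors were nearly as large. Atp6v0d2, a subunit of the proton pump of phagosomes and lysosomes, had 10.83 in DMEM/F12 and 10.08 in DMEM, or 1.68-fold higher. In the same list Nnt, which makes NADPH in mitochondria, had 7.80 in DMEM/F12 and 7.28 in DMEM (0.52), where 10 of 18 genes were higher and 6 lower (median 0.04). Cat, whose product catalase breaks down hydrogen peroxide, had 9.80 in DMEM/F12 and 9.06 in DMEM, or 1.67-fold higher. Gsr, glutathione reductase, had 7.91 in DMEM/F12 and 7.53 in DMEM (0.38). The 18 genes for removal of superoxide and peroxide were split evenly, 9 higher and 9 lower, with a median of 0.00. Atp6v0d2 and Cat were the only genes of their lists past 1.5-fold.

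Of 18 genes of traffic to the phagosome, 6 were higher and 10 lower (median -0.02). The largest differences above background were those of the vesicle fusion genes Vamp7, with 8.31 in DMEM/F12 and 8.68 in DMEM, and Vamp8, with 7.45 in DMEM/F12 and 7.76 in DMEM. Among 14 genes of other enzymes, listed around the making of oxidants, 6 were higher and 8 lower (median -0.02). Alox15, a lipoxygenase gene, had 4.50 in DMEM/F12 and 5.08 in DMEM (-0.58), and Nos1, the neuronal nitric oxide synthase, had 5.80 in DMEM/F12 and 5.26 in DMEM (0.54). Over the 153 genes of the 9 lists outside the 7 oxidase genes, 77 were higher and 68 lower (median 0.01).

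**Figure D4:**
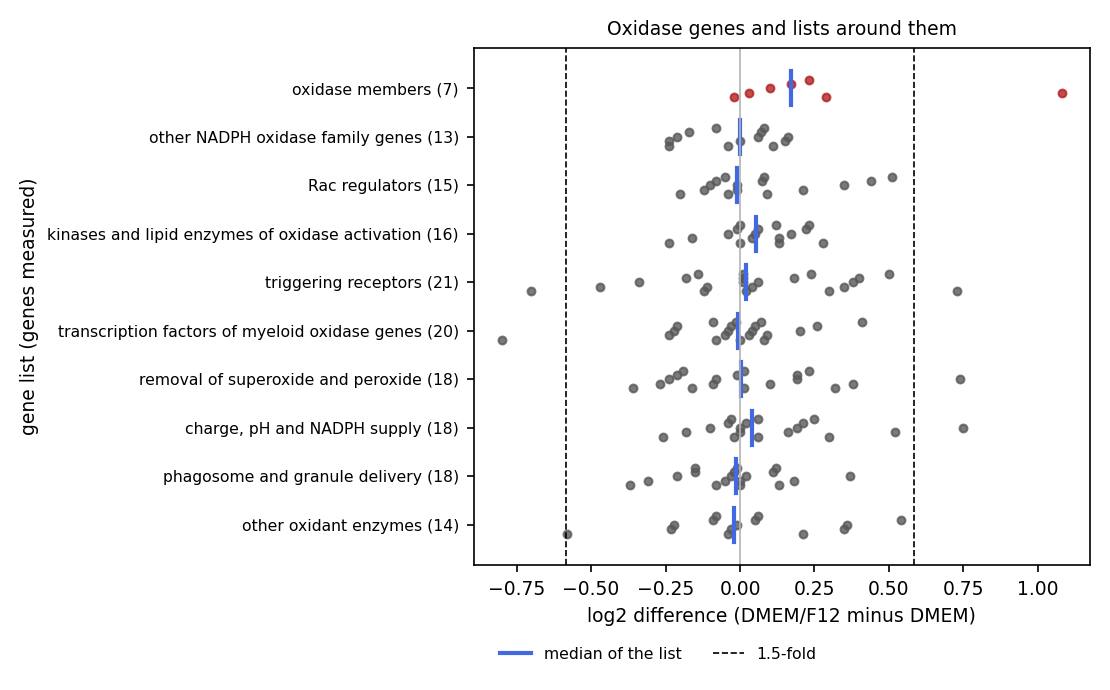
Log2 difference between DMEM/F12 and DMEM (x axis) of each gene (dots) in the 7 oxidase genes (red) and the 9 gene lists around them (gray; y axis, genes measured in parentheses), with the median of each list as a blue bar and dashed lines at 1.5-fold. The vertical spread within a row carries no value; Cybb at 1.08 is the rightmost dot, and the medians of the 9 lists lie between -0.02 and 0.06.

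The markers of the labelled cell type were above background in part. As 13225 of all 19938 genes were above background on at least 1 array, nothing is read from the counts of markers above it. Of 14 measured microglia and macrophage markers 11 were above background on at least 1 array, among them Cd68 (11.21 in DMEM/F12, 11.10 in DMEM), Tyrobp (11.17 in DMEM/F12, 11.13 in DMEM) and Adgre1, which encodes a macrophage surface receptor (9.02 in DMEM/F12, 8.80 in DMEM). Aif1, P2ry12 and Fcrls were not above background on either array, and Tmem119 was the 1 marker of the 14 past 1.5-fold (6.05 in DMEM/F12, 6.71 in DMEM). Of the 14 markers 6 were higher in DMEM/F12 and 7 lower, and among the lower ones Csf1r, the receptor for a macrophage growth factor, had 8.47 in DMEM/F12 and 8.79 in DMEM. The summed level of the 14 on the linear scale, which the markers of high signal dominate, was 8226 in DMEM/F12 and 7864 in DMEM. Neutrophils carry the same oxidase, and 4 of 7 neutrophil markers were above background on at least 1 array. Of these 4, Elane was higher in DMEM/F12 (4.88 in DMEM/F12, 4.53 in DMEM) and 3 were lower. The lower ones were Mpo (log2 difference -0.09), S100a9 (-0.03) and Camp (-0.03), all close to background. Mpo and S100a9 were above background in DMEM only. The summed level of the 7 neutrophil markers was 112 in DMEM/F12 and 104 in DMEM. Ly6g, the defining gene of neutrophils, was below background (3.34 in DMEM/F12, 3.18 in DMEM). Above background were also 1 of 6 astrocyte, 1 of 6 neuron, 3 of 5 oligodendrocyte, 4 of 6 fibroblast and 1 of 5 lymphocyte markers, with no difference past 1.5-fold. The part of these levels in the difference of Cybb was not tested.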

How the data were processed

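The authors processed 1 Mouse Gene 1.0 ST array per medium with Affymetrix Expression Console and the Transcriptome Analysis Console software named in the submitters' processing notes, and deposited log2 values with 2 decimals. For the software versions, the summarization, the genome build and the normalization between arrays, the sources used here give nothing. Media were assigned from the labels. Of 28944 clusters, 21789 had exactly 1 symbol in the platform annotation, 1621 several and 5534 none. Clusters of a gene were averaged on the log2 scale, which gave 19938 genes (13225 above background), and no further scaling was applied.

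The 7 genes, the lists and the letter strings were chosen with earlier results of these data known. Named were the 7 genes, all other family genes, the 2 genes of each list above background with the largest difference, and the 5 genes nearest to Cybb in difference. Those 5 were taken from genes above background on both arrays, without small RNAs, sensory receptors and unnamed gene models. Chromosome neighbours, marker genes, Spi1, Irf8 and Hoxa9 are named besides. No test between media was possible, and precision is limited by the number of arrays. A fold of 1.5 or 2 was used to count genes. Alternatives were 3 scalings, a floor at background, a filter on dim genes, other rules for clusters, and another fold or background percentile. Calculations used Python 3.11.15, numpy 2.4.6, pandas 2.3.3, statsmodels 0.14.6 and matplotlib 3.10.9, and were tested on simulated data.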

Additional observations from a re-analysis of the deposited data

How the results depend on the processing

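No paired analysis was possible because there was 1 array per medium. In place of a replicate spread, a log2 value was taken as shifted past 0.1 and a count past a ratio of 1.5. The differences of the 7 oxidase genes, their median, their count of higher genes and the gap between Cybb and Cyba did not shift. This held under the 3 scalings, the floor at background and the other rules for clusters, but several of these settings could not shift them. Each of the 7 has 1 cluster and none shares a cluster with another symbol, so the cluster rules could not. The floor could not, since all 7 were above background on both arrays. Median centring moved every difference by the same -0.02, so it could not pass 0.1 or change the gap. Keeping only genes above background could not shift the 7 either, for the same reason. All 7 genes stayed above background at the 99th percentile of the receptor clusters. The 50th percentile is a lower bar than the one used, so it could not remove any of them. Of 309 recomputed values, which include those that could not shift, 10 shifted, all of them counts of 0 or 1 gene in the lists. At 2-fold in place of 1.5-fold the counts for triggering receptors became 0 higher and 0 lower, those for removal of superoxide and peroxide and for charge, pH and NADPH supply 0 higher, and that for transcription factors 0 lower. The count of lower transcription factors was also 0 with values raised to background and 0 with only genes above background, because Hoxa9 is dim. The count of lower genes among other oxidant enzymes was 1 after median centring, 1 after quantile normalization and 1 after loess subtraction, against 0 as deposited, since Alox15 lies just short of 1.5-fold. The scalings moved the median of all genes by at most 0.02 in size.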
